A study of Manihot esculenta with 44 samples.

Results

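DnaJ co-chaperones, also called J proteins or HSP40s, were taken from the cassava leaf transcriptome (Manihot esculenta) as all gene IDs whose deposited description contains "DnaJ" in upper or lower case. The transcripts of an ID were summed. The rule found 141 of 34120 gene IDs, with 183 transcripts between them, and used no measured value. All plants were of the variety KU50, a clonal crop planted as lignified stem pieces and given similar fertilizer at both sites. The non-flowering plants grew in an ordinary field in Hanoi and were sampled on 24 May, 13 July, 7 August and 10 October 2019. The flowering plants grew in the mountains of Bac Kan and were sampled on 31 May, 29 June, 26 July, 15 August, 11 September, 5 October and 30 October 2019. Each of these 11 groups had 4 libraries, which gave 16 for Hanoi and 28 for Bac Kan. A site was a single field and the hour of sampling is not in the labels. Site, field, flowering state, day and hour therefore cannot be told apart. Whether a group's libraries stem from 1 plant or several is unknown, so p values measure only the spread between them.

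A DnaJ protein docks on an HSP70 chaperone through its J domain and speeds up the ATP cycle with which HSP70 binds an unfolded client. Type A members carry the J domain with a zinc finger and a C-terminal client-binding domain, type B members lack the zinc finger, and many others keep the J domain alone or join it to unrelated domains. Plants place different members in the cytosol, chloroplast, mitochondrion and endoplasmic reticulum, and some cytosolic members are known for their increase in heat-stressed leaves. Members described by the DnaJ cysteine-rich domain hold the zinc finger motif without being J proteins, and several act in the assembly or repair of the photosynthetic apparatus.

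By their listed Pfam domains, 9 members had the J domain, the zinc finger and the C-terminal domain of type A. Another 9 had the J domain and the C-terminal domain of type B. The J domain was the only listed domain in 51 members and stood with other domains in 34. No Pfam domain was listed for 28, other domains alone for 7 and the C-terminal domain alone for 3. Members are named below by their Arabidopsis best hit. The 141 members shared 89 best hits, and 87 members shared one with another member. How reads were divided between close copies is not given in the sources used here, so the values of members with the same best hit carry that uncertainty.

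Levels below are FPKM, which counts fragments per kilobase of transcript relative to the library, rescaled to a total of 1000000 in each library, which allows levels of different genes to be compared per length. A site difference is Bac Kan minus Hanoi on the log2(level + 1) scale, given ± SE, and a positive value means higher in Bac Kan. This scale understates the change of genes with low levels. The p values are those of limma, adjusted by the method of Benjamini and Hochberg over 23405 genes, and a value under 0.05 is a call. In a bulk leaf sample, fewer cells of a type and less RNA per cell cannot be told apart.

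Of the 141 members, 128 reached a level of 1 in at least 4 of the 44 libraries and were tested. The other 13 were not tested, and 6 of these were listed at 0 in all 44 libraries. The highest value among the 13 was 9.76, in 1 library of MANES_12G011100. Over the mean of the 11 groups, 16 members stood at 100 or more and 56 under 10. The median of the members tested was 19.7. The summed level of all members ran from 5682 to 9625 over the 44 libraries, with the lowest mean, 6147 ± 483 (SD, n = 4), in Hanoi on 13 July and the highest, 8322 ± 923 (SD, n = 4), in Bac Kan on 5 October.

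Leaf markers, the Rubisco and antenna genes matched in 5 IDs, summed to 6492 to 15798 in every library. Flower markers summed to at most 58.5, with 2 of 11 IDs at 0 in all libraries, dividing tissue markers to at most 11.3, with 2 of 5 at 0, and woody tissue markers to at most 5.68. Relative depth, estimated from the spacing of low values, ran from 0.700 to 1.48. In the October pair it was 1.23 to 1.48 in Hanoi and 0.752 to 0.890 in Bac Kan, without overlap. Within the Hanoi group of 24 May the mean correlation between libraries was 0.873, below the 0.916 to 0.947 of the other groups. Its 10 most abundant genes held 13.2 to 15.3% of the total, against 8.67 to 9.17% in Bac Kan on 31 May. Gene IDs without the MANES prefix of the other genes held 0.757 to 0.979% of the total in Bac Kan and 0.242 to 0.326% in Hanoi in the July pair. They held 0.362 to 0.686% and 0.182 to 0.279% in the August pair, and 0.468 to 0.776% and 0.138 to 0.229% in the October pair, without overlap in any of the 3. The part of these differences in the results on the pairs was not tested.

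The sites were compared in 4 pairs of close dates. In the late May pair 40 of the 128 members were called, which is 31.2% beside 28.7% of all genes tested. Of these, 23 were higher and 17 lower in Bac Kan, beside 16.1% and 12.6% of all genes. With the spread of the 2 groups alone the late May calls were 23 members, or 17.97%, beside 14.8% of all genes. In July the members called were 16, or 12.5% beside 8.84%, with 13 higher and 3 lower beside 5.17% and 3.66%. In August they were 23, or 17.97% beside 14.5%, with 15 higher and 8 lower beside 6.4% and 8.11%. In October they were 40, or 31.2% beside 24.2%, with 20 higher and 20 lower beside 10.5% and 13.6%. The share of members called was thus somewhat above that of all genes in each pair, and no test compared the shares. The shares were closer among genes at 5 or more in at least 4 libraries. There they were 35.6% beside 34.7% in late May and 14.4% beside 11.6% in July. In August they were 19.5% beside 18.5%, and in October 33.1% beside 29.9%.

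In the mean of the 4 pairs 42 members were called, beside 25.2% of all genes, with 30 higher and 12 lower beside 12.5% and 12.7%. When the 11 date means served as the samples, limma compared the 7 Bac Kan dates with the 4 Hanoi dates, unpaired. This contrast also holds dates that are in no pair. It called 0 members and 6 of all 23405 genes, and 23 members had an unadjusted p under 0.05. The median site difference, for members and for all genes tested, was 0.07 and 0.06 in the late May pair, 0.16 and 0.06 in the July pair, -0.01 and -0.06 in the August pair, and -0.05 for both in the October pair. All 4 libraries of one site lay above all 4 of the other for 31 members in the late May pair, 23 in the July pair, 27 in the August pair and 44 in the October pair, beside 20.9%, 12.6%, 16.9% and 27.8% of all genes tested. The site difference itself changed between the pairs for 62 members, beside 38.1% of all genes (F test with 3 degrees of freedom). Most of what follows is therefore a description of single members, some of which differed between the sites in opposite directions at different dates.

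**Figure D1:**
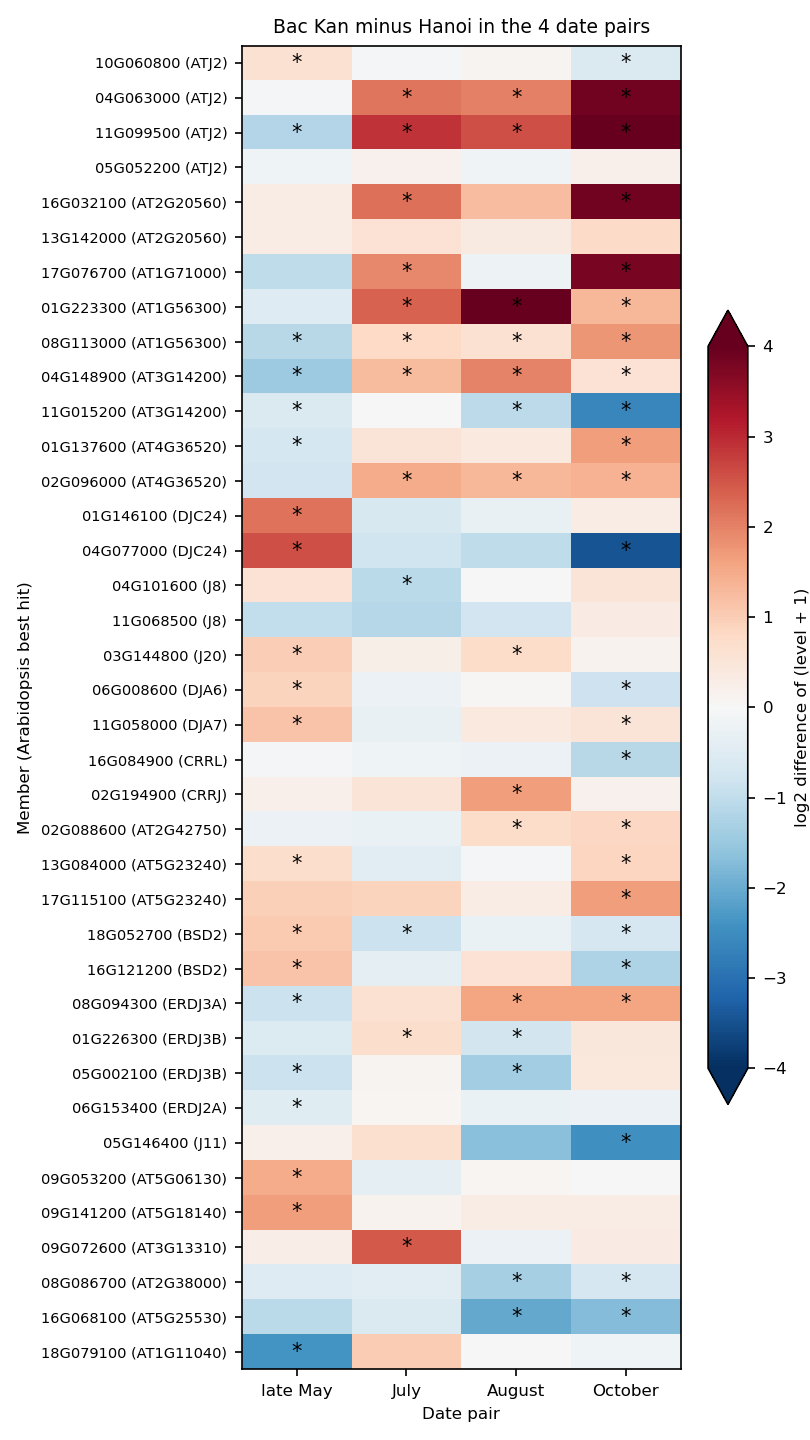
Site differences of the 38 members described by library, as log2 difference of (level + 1), Bac Kan minus Hanoi, in the 4 date pairs. Red is higher in Bac Kan and blue higher in Hanoi, the colour scale ends at 4 in each direction, and an asterisk marks a call. The first rows hold the ATJ2 homologues, of which MANES_11G099500 reached 5.38 in October.

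The largest site difference of a member called in October was in the cytosolic group. Of its 7 members, 2 were called higher and 1 lower in late May, beside 16.1% and 12.6% of all genes. In July 3 were higher, beside 5.17%, and in August 2 were higher, beside 6.4%. In October 3 were higher and 1 lower, beside 10.5% and 13.6%. ATJ2 is an Arabidopsis type A J protein that is anchored by farnesylation and serves cytosolic HSP70, and 4 cassava members had it as their best hit. In Hanoi, MANES_11G099500 stood at 101, 110, 104 and 104 on 24 May, at 21.8, 10.3, 17.5 and 6.70 on 13 July, at 10.4, 11.0, 7.13 and 4.27 on 7 August, and at 5.10, 7.47, 6.21 and 5.51 on 10 October. In Bac Kan it stood at 88.7, 67.7, 28.0 and 27.3 on 31 May, at 154, 99.9997, 91.5 and 78.6 on 26 July, at 73.9, 33.6, 57.1 and 50.5 on 15 August, and at 362, 265, 671 and 112 on 5 October. The sites did not overlap in any pair, with Hanoi above Bac Kan in late May and below it in July, August and October. The late May difference was -1.16 ± 0.39 (adjusted p = 0.023), and it became 2.90 ± 0.39 in July (adjusted p = 2.74e-06), 2.59 ± 0.39 in August (adjusted p = 6e-06) and 5.38 ± 0.39 in October (adjusted p = 2.58e-13). The late May call was lost without library 3 (adjusted p = 0.104) or library 4 (adjusted p = 0.106) of Bac Kan, and with the spread taken from the 2 groups alone (adjusted p = 0.0889).

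MANES_04G063000 followed the same course at higher levels. It stood at 183, 134, 156 and 130 in Hanoi on 24 May and at 36.8, 30.6, 31.2 and 21.5 on 10 October. In Bac Kan it stood at 179, 179, 110 and 109 on 31 May and at 512, 461, 683 and 238 on 5 October. The late May libraries of the sites overlapped and the October libraries lay far apart. The difference was -0.09 ± 0.27 in late May (adjusted p = 0.847), 2.13 ± 0.27 in July (adjusted p = 7.94e-07), 2.01 ± 0.27 in August (adjusted p = 5.86e-07) and 3.86 ± 0.27 in October (adjusted p = 7.61e-14). From the first to the last date both genes fell in Hanoi, MANES_11G099500 by 3.91 (adjusted p = 1.73e-10) and MANES_04G063000 by 2.30 (adjusted p = 4.76e-09) on the log2 scale. Between 31 May and 30 October both rose in Bac Kan, by 1.90 (adjusted p = 0.00026) and 1.37 (adjusted p = 0.000119). Over the 11 group means their correlation was 0.98, a description over groups of which 7 share a field and 4 the other.

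The other pair of ATJ2 homologues did not share that course. MANES_10G060800 had the highest mean level of all members, 704 over the 11 groups. It stood at 618, 588, 706 and 569 in Hanoi on 24 May and at 869, 912, 915 and 1079 in Bac Kan on 31 May, with all Bac Kan libraries higher. In October the order was the opposite, with 968, 1189, 1086 and 936 in Hanoi and 632, 771, 653 and 759 in Bac Kan. The difference was 0.60 ± 0.11 in late May (adjusted p = 3.83e-05) and -0.57 ± 0.11 in October (adjusted p = 0.000104), and it was not called in July (-0.08, adjusted p = 0.765) or August (0.12, adjusted p = 0.523). MANES_05G052200 ranged from 24.8 to 75.4 over all 44 libraries and was called in no pair, with differences from -0.17 to 0.21. The correlation of MANES_10G060800 over the 11 group means was -0.40 with MANES_11G099500 and -0.43 with MANES_04G063000.

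**Figure D2:**
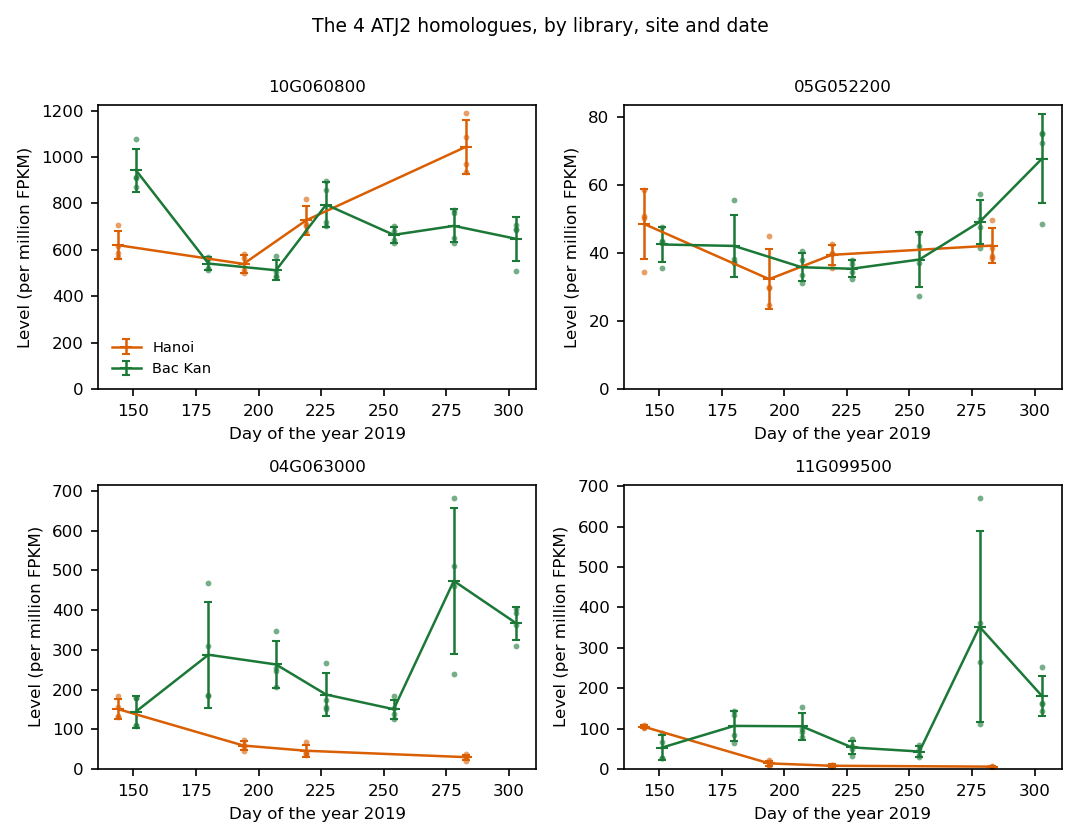
Levels (FPKM rescaled to a total of 1000000) of the 4 ATJ2 homologues against the day of the year 2019, with a point for each library and the mean ± SD of 4 libraries joined by a line for each site. The y axes start at 0 and differ between panels. MANES_04G063000 and MANES_11G099500 decline in Hanoi and peak in Bac Kan on 5 October, where 1 library of MANES_11G099500 reached 671, while MANES_10G060800 is highest in Hanoi on 10 October.

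Type B members take part in the cytosolic HSP70 cycle without a zinc finger. MANES_16G032100, with the best hit AT2G20560, stood at 3.55, 3.86, 0 and 3.16 in Hanoi on 13 July and at 21.4, 14.1, 9.15 and 10.7 in Bac Kan on 26 July. In October it stood at 2.25, 2.09, 1.95 and 0.871 in Hanoi and at 47.3, 29.7, 88.7 and 18.2 in Bac Kan. The sites did not overlap in either pair. The difference was 2.19 ± 0.45 in July (adjusted p = 0.00108), lost with the spread of the 2 groups alone (adjusted p = 0.0727), and 3.87 ± 0.45 in October (adjusted p = 1.93e-08). It was 0.30 in late May (adjusted p = 0.672), when the gene was at 19.6, 17.1, 29.6 and 23.2 in Hanoi and at 45.0, 34.5, 15.7 and 22.1 in Bac Kan. The other AT2G20560 homologue, MANES_13G142000, ranged from 1.01 to 25.5 and was called in no single pair.

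MANES_17G076700, with the best hit AT1G71000 and the J domain as its only listed domain, was low in Hanoi after May. It stood at 23.4, 25.5, 59.8 and 53.5 there on 24 May and at 1.11, 0, 0.974 and 0.262 on 10 October, a fall of 4.66 on the log2 scale (adjusted p = 7.09e-08). In Bac Kan on 5 October it stood at 32.6, 8.48, 62.0 and 9.03, above every Hanoi library of 10 October (difference 3.81 ± 0.61, adjusted p = 8.17e-06). Its July call (1.93 ± 0.61, adjusted p = 0.0395) was lost when library 1, 2 or 3 of Hanoi or library 2 or 4 of Bac Kan was left out, with adjusted p from 0.085 to 0.172, and under 4 other settings, with adjusted p from 0.0503 to 0.261.

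The libraries of a date were themselves uneven for these members. In Bac Kan on 31 May, libraries 1 and 2 lay above libraries 3 and 4 for MANES_11G099500 and MANES_04G063000, and for MANES_16G032100. In Bac Kan on 5 October library 3 was the highest of the 4 for all of these and for MANES_17G076700, and library 4 was the lowest for the first 3. The October calls of these members were kept without any one library.

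Several of the most abundant members consist of little more than a J domain, and their Arabidopsis best hits have no role given here. MANES_08G113000, with the best hit AT1G56300, had a mean level of 592. It stood at 1162, 1199, 1223 and 1136 in Hanoi on 24 May, at 437, 330, 504 and 550 on 13 July, at 435, 450, 432 and 345 on 7 August, and at 132, 162, 185 and 202 on 10 October. In Bac Kan it stood at 589, 548, 546 and 516 on 31 May, at 686, 808, 793 and 835 on 26 July, at 636, 483, 694 and 766 on 15 August, and at 499, 671, 681 and 473 on 5 October. Hanoi went from far above every Bac Kan library to far below them, while Bac Kan stayed within 423 to 835 over its 7 dates. The difference was -1.10 ± 0.16 in late May (adjusted p = 1.06e-06), 0.80 ± 0.16 in July (adjusted p = 0.000694), 0.62 ± 0.16 in August (adjusted p = 0.00499) and 1.76 ± 0.16 in October (adjusted p = 4.61e-11). With the spread of the 2 groups alone the August call was lost (adjusted p = 0.0543). Of all members it had the smallest p for a change over the Hanoi dates (adjusted p = 1.46e-15) and for a change of the site difference between pairs (adjusted p = 2.04e-11).

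The other AT1G56300 homologue, MANES_01G223300, had its largest site difference in August. It stood at 8.09, 4.34, 4.34 and 7.19 in Hanoi on 7 August and at 126, 331, 131 and 129 in Bac Kan on 15 August. Every Bac Kan library was above every Hanoi library, and library 2 of Bac Kan stood apart from its group. The difference was 4.60 ± 0.47 in August (adjusted p = 3.8e-09) and 2.36 ± 0.47 in July (adjusted p = 0.000827). In October it was 1.34 ± 0.47 (adjusted p = 0.0352), lost when library 1, 2 or 3 of Bac Kan or library 2, 3 or 4 of Hanoi was left out, with adjusted p from 0.0512 to 0.1. In late May it was -0.50 (adjusted p = 0.468), with 119 and 94.7 in libraries 1 and 2 of Bac Kan and 15.2 and 10.1 in libraries 3 and 4.

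The AT3G14200 homologues were both called lower in Bac Kan in late May and were called in opposite directions in August and October. MANES_04G148900 stood at 820, 607, 835 and 773 in Hanoi on 24 May and at 382, 325, 247 and 180 in Bac Kan on 31 May. In August it stood at 230, 138, 245 and 320 in Hanoi and at 909, 658, 1043 and 1032 in Bac Kan. Hanoi was above Bac Kan in late May and below it in August, without overlap. The difference was -1.46 ± 0.21 in late May (adjusted p = 9.25e-07), 1.27 ± 0.21 in July (adjusted p = 5.69e-05) and 2.00 ± 0.21 in August (adjusted p = 4.68e-09). In October, when the sites overlapped, it was 0.58 ± 0.21 (adjusted p = 0.0383), and the call was lost without library 3 or 4 of Bac Kan or library 1 or 3 of Hanoi, with adjusted p from 0.0648 to 0.198, with the most abundant transcript (adjusted p = 0.184) and with the spread of the 2 groups alone (adjusted p = 0.0942).

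MANES_11G015200 stood at 456, 718, 834 and 540 in Hanoi on 10 October and at 128, 99.7, 98.7 and 81.6 in Bac Kan on 5 October, with every Hanoi library higher. The difference was -2.61 ± 0.21 in October (adjusted p = 1.96e-12), -1.05 ± 0.21 in August (adjusted p = 0.00028) and 0.00 in July (adjusted p = 1). In late May it was -0.57 ± 0.21 (adjusted p = 0.0333), with overlap, and the call was lost without library 2 of Bac Kan (adjusted p = 0.165) or library 1 (adjusted p = 0.112) or 3 (adjusted p = 0.109) of Hanoi, with only the most abundant transcript (adjusted p = 0.0894) and with the spread of the 2 groups alone (adjusted p = 0.128). From the first to the last date it rose by 1.25 in Hanoi (adjusted p = 4.64e-06) and fell by 1.37 in Bac Kan (adjusted p = 2.16e-06) on the log2 scale. Its correlation with MANES_04G148900 over the 11 group means was -0.37.

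**Figure D3:**
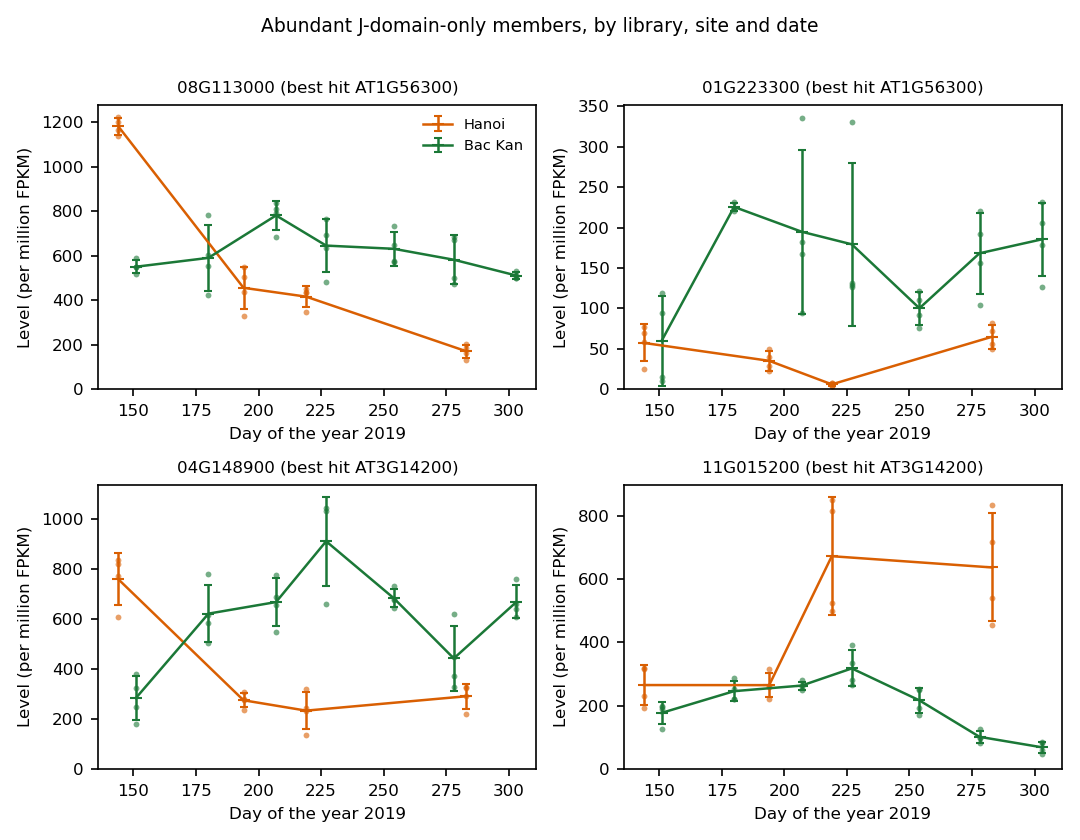
Levels (FPKM rescaled to a total of 1000000) of 4 abundant J-domain members against the day of the year 2019, with a point for each library and the mean ± SD of 4 libraries joined by a line for each site. The y axes start at 0 and differ between panels. MANES_08G113000 declines from about 1180 to 170 in Hanoi, and the AT3G14200 homologues separate in opposite directions, with MANES_04G148900 higher in Bac Kan and MANES_11G015200 higher in Hanoi in August.

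Both AT4G36520 homologues, for which no role is given here, were higher in Bac Kan in October. MANES_01G137600 stood at 141, 175, 172 and 148 in Hanoi on 10 October and at 347, 653, 642 and 459 in Bac Kan on 5 October (difference 1.68 ± 0.27, adjusted p = 9.83e-06). MANES_02G096000 stood at 17.5, 43.5, 43.7 and 31.0 in Hanoi and at 59.8, 109, 114 and 71.8 in Bac Kan in October (1.39 ± 0.32, adjusted p = 0.00106). Neither overlapped between the sites on these dates. MANES_02G096000 was also called higher in July (1.497 ± 0.32, adjusted p = 0.00162) and August (1.33 ± 0.32, adjusted p = 0.00279). The August libraries overlapped, and the call was lost with the spread of the 2 groups alone (adjusted p = 0.0626).

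Of the members whose best hit is a chloroplast J protein, 16 of 22 were tested. In late May 7 of the 16 were called, all higher in Bac Kan, in July 1 lower, in August 2 higher and 1 lower, and in October 1 higher and 4 lower. The shares of all genes called higher and lower were 16.1% and 12.6% in the late May pair, 5.17% and 3.66% in the July pair, 6.4% and 8.11% in the August pair, and 10.5% and 13.6% in the October pair. Of the 5 leaf marker IDs, 2 were called higher in late May, 1 lower in July, 2 higher in August and 2 lower in October, with median differences of 0.43, -0.01, 0.18 and -0.44. Their part in the counts of chloroplast members was not tested. DJC24, J8 and J11 are small plastid proteins with a J domain. The DJC24 homologue MANES_01G146100 stood at 45.5, 42.4, 38.2 and 25.2 in Hanoi on 24 May and at 98.1, 205, 176 and 229 in Bac Kan on 31 May, without overlap. The difference was 2.16 ± 0.23 (adjusted p = 3.08e-09), and in the later pairs it was not called, with values from -0.65 to 0.31. In Hanoi the gene had risen to 239, 283, 263 and 264 by 10 October, by 2.79 on the log2 scale (adjusted p = 1.59e-12).

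A low DJC24 homologue, MANES_04G077000, was listed at 0 in all 4 Hanoi libraries of 24 May and at 5.87, 32.4, 0 and 4.66 in Bac Kan on 31 May. By October the order was the opposite, with 12.3, 14.6, 15.1 and 16.9 in Hanoi and 0, 0, 0 and 2.99 in Bac Kan. The fitted difference was 2.59 in late May (adjusted p = 0.00136), lost with the spread of the 2 groups alone (adjusted p = 0.11), and -3.47 ± 0.62 in October (adjusted p = 4.04e-05). Against groups listed mostly at 0 these values depend on the pseudocount and are no fold change.

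The J8 homologue MANES_04G101600 stood at 92.9, 146, 131 and 131 in Hanoi on 13 July and at 45.4, 59.4, 52.6 and 77.4 in Bac Kan on 26 July, all lower (-1.09 ± 0.25, adjusted p = 0.0032). The other J8 homologue, MANES_11G068500, gave -1.13 ± 0.42 in July (adjusted p = 0.0908), and its libraries did not overlap either. The J11 homologue MANES_05G146400 stood at 27.2, 24.4, 11.1 and 30.2 in Hanoi on 10 October and at 4.96, 0.756, 1.97 and 8.95 in Bac Kan on 5 October, all lower (-2.44 ± 0.73, adjusted p = 0.0117). That call was lost without library 2 of Bac Kan (-2.02, adjusted p = 0.0608) and with a pseudocount of 0.1 (adjusted p = 0.0864).

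DJA6 and DJA7 are plastid type A J proteins of Arabidopsis. The DJA6 homologue MANES_06G008600 stood at 56.6, 65.9, 53.6 and 39.7 in Hanoi on 24 May and at 91.1, 90.8, 110 and 106 in Bac Kan on 31 May. In October it stood at 121, 147, 136 and 125 in Hanoi and at 87.1, 61.8, 82.0 and 68.6 in Bac Kan. The sites were apart in both pairs and in opposite order, with differences of 0.89 ± 0.12 (adjusted p = 4.37e-07) and -0.82 ± 0.12 (adjusted p = 2e-06). The DJA7 homologue MANES_11G058000 stood at 24.8, 19.96, 20.7 and 29.6 in Hanoi and at 52.5, 52.7, 65.9 and 45.0 in Bac Kan in late May, all higher (1.16 ± 0.17, adjusted p = 1.39e-06).

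J20 delivers an enzyme of isoprenoid synthesis to HSP70 in Arabidopsis plastids, and 9 members had it as their best hit. Only 4 of these 9 were tested. MANES_03G144800 stood at 62.8, 35.4, 49.2 and 54.5 in Hanoi on 24 May and at 99.99, 102, 108 and 89.7 in Bac Kan on 31 May, without overlap (0.998 ± 0.16, adjusted p = 6.27e-06). It was again higher in August (0.74 ± 0.16, adjusted p = 0.000829). Among the other J20 homologues tested, MANES_15G056300 was called lower in August and MANES_12G049000 was called higher in late May. CRRJ and CRRL belong to the chloroplast NDH complex, which carries electrons around photosystem I. The CRRJ homologue MANES_02G194900 stood at 68.2, 37.4, 44.6 and 36.2 in Hanoi on 7 August and at 138, 159, 143 and 142 in Bac Kan on 15 August, all higher (1.67 ± 0.23, adjusted p = 1.43e-06). The CRRL homologue MANES_16G084900 stood at 238, 234, 249 and 199 in Hanoi on 10 October and at 98.0, 105, 146 and 81.7 in Bac Kan on 5 October, all lower (-1.12 ± 0.16, adjusted p = 1.39e-06).

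Some members combine the J domain with a 4Fe-4S domain of the ferredoxin type. MANES_02G088600, with the best hit AT2G42750, had a mean level of 430. It stood at 227, 216, 200 and 229 in Hanoi on 10 October and at 365, 390, 519 and 314 in Bac Kan on 5 October, all higher (0.84 ± 0.13, adjusted p = 4.77e-06), and was also higher in August (0.74 ± 0.13, adjusted p = 6.5e-05). From the first to the last date it fell at both sites, by 1.31 in Hanoi (adjusted p = 1.69e-10) and by 1.14 in Bac Kan (adjusted p = 1.04e-08) on the log2 scale. Of the AT5G23240 homologues, MANES_17G115100 stood at 18.7, 24.6, 31.5 and 25.01 in Bac Kan on 31 May and at 93.1, 81.3, 87.8 and 82.6 on 30 October, a rise of 1.77 (adjusted p = 0.00169). MANES_13G084000 had an October difference of 0.85 ± 0.24 (adjusted p = 0.00666), whose call was lost without library 1 of Hanoi (0.66, adjusted p = 0.0517).

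Of the 5 cysteine-rich plastid members tested, 2 were called higher in late May, beside 16.1% of all genes. In July 2 were lower, beside 3.66%, and in October 2 were lower, beside 13.6%. BSD2 assists the assembly of Rubisco, and its homologue MANES_18G052700 stood at 149, 128, 112 and 181 in Hanoi on 24 May and at 299, 437, 287 and 196 in Bac Kan on 31 May, all higher (1.06 ± 0.23, adjusted p = 0.000604). In July it stood at 337, 385, 256 and 346 in Hanoi and at 201, 193, 156 and 169 in Bac Kan, all lower (-0.87 ± 0.23, adjusted p = 0.0128). A further BSD2 homologue, MANES_16G121200, was higher in late May (1.15 ± 0.32, adjusted p = 0.0053) and lower in October (-1.24 ± 0.32, adjusted p = 0.0032). The BSD2 homologues correlated at 0.74 to 0.83 over the 11 group means, so their calls may not be independent. MANES_09G053200, whose best hit AT5G06130 resembles the plastid protein ORANGE, stood at 54.5, 22.2, 26.8 and 64.1 in Hanoi and at 116, 116, 103 and 97.2 in Bac Kan in late May, all higher (1.48 ± 0.19, adjusted p = 1.64e-07). In the later pairs its difference lay between -0.38 and 0.09 and was not called.

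In the endoplasmic reticulum, J proteins serve the HSP70 called BiP. The ERDJ3A homologue MANES_08G094300 stood at 5.97, 3.84, 4.07 and 3.74 in Hanoi on 7 August and at 13.9, 15.6, 17.6 and 12.7 in Bac Kan on 15 August, all higher (1.57 ± 0.27, adjusted p = 5.64e-05). In October it stood at 9.32, 9.92, 6.15 and 7.16 in Hanoi and at 27.2, 29.0, 32.2 and 16.8 in Bac Kan, again all higher (1.56 ± 0.27, adjusted p = 3.1e-05). In late May MANES_08G094300 stood at 16.2, 31.0, 16.5 and 15.8 in Hanoi and at 17.2, 14.7, 6.25 and 6.42 in Bac Kan, where it was called lower although the sites overlapped (-0.85 ± 0.27, adjusted p = 0.0166). That call was lost without library 2 of Hanoi (adjusted p = 0.1), which was the highest, without library 3 (adjusted p = 0.0965) or library 4 (adjusted p = 0.0911) of Bac Kan, and with the spread of the 2 groups alone (adjusted p = 0.194). The ERDJ3B homologue MANES_05G002100 stood at 53.4, 50.6, 41.3 and 33.7 in Hanoi and at 23.0, 11.5, 14.2 and 19.0 in Bac Kan in August. Each Bac Kan library was lower (-1.38 ± 0.29, adjusted p = 0.000784). MANES_05G002100 was called lower in late May too, and its rise from the first to the last date in Bac Kan was called. The other ERDJ3B homologue, MANES_01G226300, was also lower in August (-0.72 ± 0.21, adjusted p = 0.0145) and was higher in July (0.71 ± 0.21, adjusted p = 0.0253). The August libraries of MANES_01G226300 overlapped, and that call was lost without library 2 of Bac Kan (adjusted p = 0.0532) or library 1 (adjusted p = 0.0544) or library 2 (adjusted p = 0.0847) of Hanoi. Its July call was lost without library 4 of Bac Kan (adjusted p = 0.14) or library 1 (adjusted p = 0.0884) or library 2 (adjusted p = 0.11) of Hanoi. ERDJ2A is the SEC63 subunit of the protein-conducting channel, and its homologue MANES_06G153400 stood at 89.0, 97.4, 116 and 107 in Hanoi and at 73.8, 62.4, 81.4 and 73.1 in Bac Kan in late May, all lower (-0.49 ± 0.12, adjusted p = 0.00267).

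**Figure D4:**
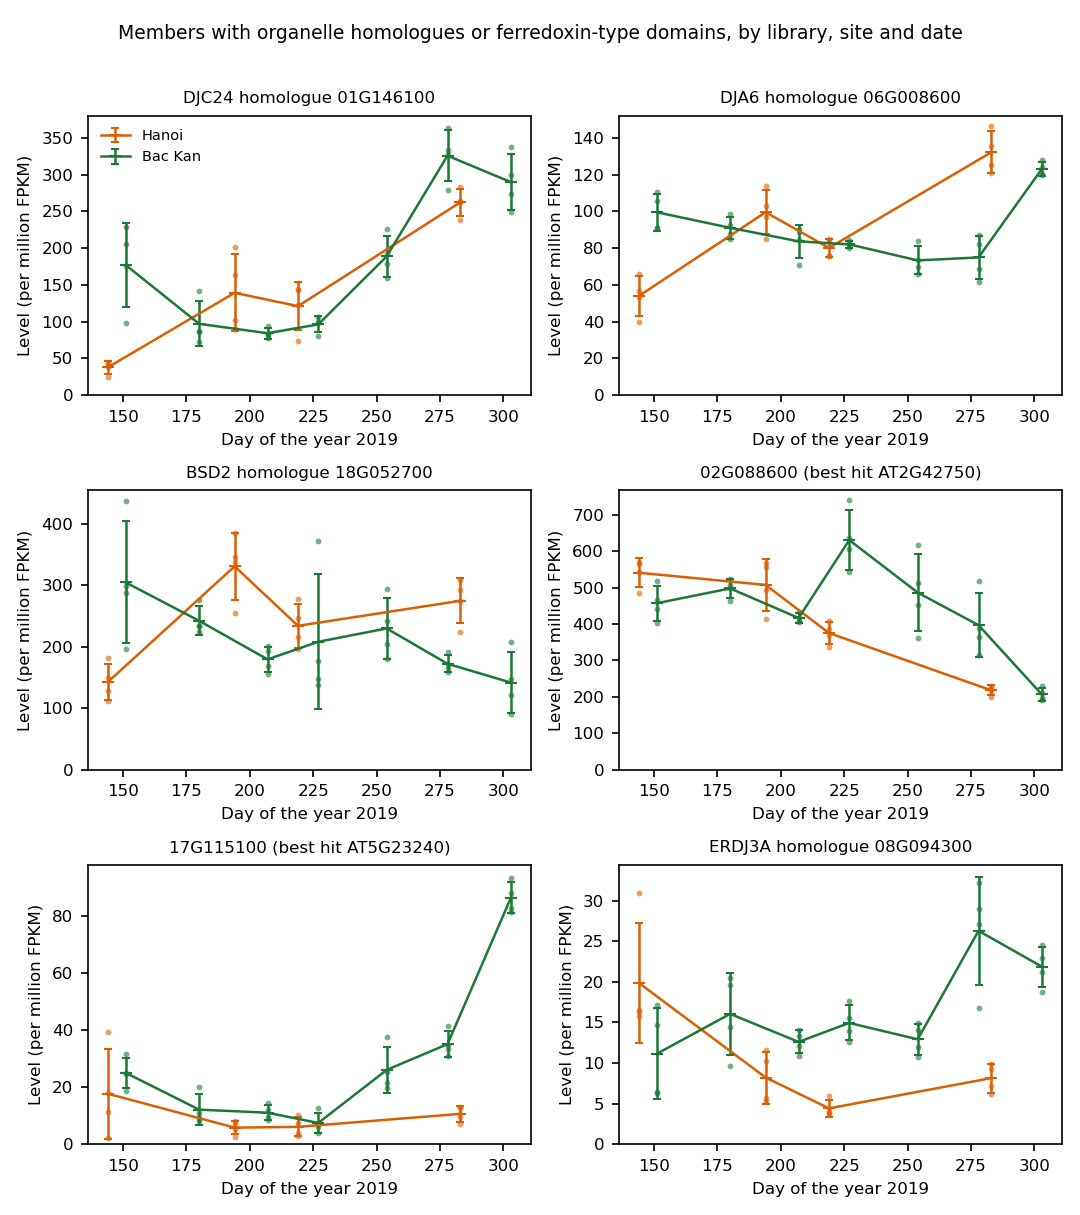
Levels (FPKM rescaled to a total of 1000000) of 6 members with organelle homologues or a ferredoxin-type domain against the day of the year 2019, with a point for each library and the mean ± SD of 4 libraries joined by a line for each site. The y axes start at 0 and differ between panels. The DJC24 and DJA6 homologues are lower in Hanoi on 24 May, and the ERDJ3A homologue is higher in Bac Kan in the October pair. MANES_17G115100 is higher on the last than on the first Bac Kan date.

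The 5 mitochondrial members are homologues of ATJ1, of HSC20, which serves the making of iron-sulfur clusters, and of the import motor subunit PAM18. Over the 4 pairs, 1 of them was called in 1 pair, the PAM18 homologue MANES_02G141900, which was higher in late May with levels of at most 5.12 in those libraries. Beside it, 16.1% of all genes were called higher in that pair. The share of all genes called in either direction was 28.7% there, against 8.84% (July), 14.5% (August) and 24.2% (October). No test compared the mitochondrial count with these shares, and 5 members are too few to tell them apart. Of the 6 trafficking members, which include homologues of the clathrin uncoating auxilins and of ARG1, a protein of root gravitropism, 2 were called lower in late May, beside 12.6% of all genes, and 1 higher in October, beside 10.5%. The single homologue of GLSA, a chromatin J protein, was called in no pair.

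Members without a role given here also differed. MANES_09G072600, with the best hit AT3G13310, stood at 1.68, 7.84, 4.22 and 8.97 in Hanoi on 13 July and at 36.5, 21.6, 45.2 and 26.6 in Bac Kan on 26 July, all higher (2.44 ± 0.50, adjusted p = 0.001). MANES_09G141200, with the best hit AT5G18140, stood at 27.8, 16.3, 25.2 and 20.8 in Hanoi and at 58.2, 82.4, 80.1 and 70.1 in Bac Kan in late May, all higher (1.66 ± 0.26, adjusted p = 5.52e-06). MANES_18G079100, with the best hit AT1G11040, stood at 1.57, 9.16, 21.0 and 14.8 in Hanoi and at 0.325, 1.04, 1.27 and 0.930 in Bac Kan in late May, all lower (-2.40 ± 0.44, adjusted p = 5.78e-05). Each of these was called in that pair only.

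MANES_16G068100, with the best hit AT5G25530, stood at 17.6, 17.7, 19.5 and 11.6 in Hanoi and at 1.77, 1.40, 5.37 and 6.56 in Bac Kan in August, a difference of -2.03 ± 0.46 (adjusted p = 0.00141). In October it stood at 11.9, 13.1, 19.2 and 13.7 in Hanoi and at 4.43, 5.74, 3.52 and 1.71 in Bac Kan (-1.73 ± 0.46, adjusted p = 0.00422). Bac Kan lay below Hanoi without overlap on both dates. MANES_08G086700, with the best hit AT2G38000, stood at 39.4, 36.4, 24.8 and 41.0 in Hanoi and at 14.4, 14.2, 11.4 and 13.6 in Bac Kan in August, also all lower (-1.32 ± 0.20, adjusted p = 8.07e-06).

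Levels of the members also changed with the season within a site. Over the 7 Bac Kan dates 66 members changed, beside 44.8% of all genes tested, and over the 4 Hanoi dates 77 changed, beside 50.4% (F tests with 6 and 3 degrees of freedom). The smallest p over the Bac Kan dates belonged to MANES_11G015200 (adjusted p = 4.17e-11) and MANES_02G088600 (adjusted p = 7.07e-11). From the first to the last date 40 members were called in Bac Kan, beside 25.9% of all genes, with 29 rises and 11 falls beside 16.1% and 9.8%. In Hanoi 52 were called, 40.6% beside 42.5% of all genes, with 33 rises and 19 falls beside 25.3% and 17.2%. With median-ratio scaling the rises and falls were 22 and 12 members in Bac Kan, beside 11.8% and 12.3% of all genes, and 27 and 26 members in Hanoi, beside 21.4% and 20.1%. That scaling moved the median of all genes by -0.10 in Bac Kan and by -0.11 in Hanoi on the log2 scale, so the excess of rises over falls was not kept for members in Hanoi or for all genes in Bac Kan.

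Homologues of the same best hit varied in how closely they moved together. Among the members tested, 33 best hits had at least 2 homologues, which made 54 pairs. The median correlation of a pair over the 11 group means was 0.45, with a range from -0.47 to 0.98, and 8 pairs were negative while 8 were above 0.8. Over all 8128 pairs of members the median was 0.08. The pairs share libraries and, where copies are close, may share reads, so these are descriptions.

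The HSP70 partners of the DnaJ proteins, nucleotide exchange factors, other chaperones and heat shock factors were taken from lists of Arabidopsis best hits. Of 22 HSP70 and HSP110 genes, 3 were called higher and 7 lower in late May, 9 higher in July, 4 higher and 1 lower in August, and 13 higher and 1 lower in October. Of 15 genes of the HSP90, HOP and HSP100 list tested, 3 were higher and 2 lower in late May, 11 higher in July, 6 higher and 1 lower in August, and 14 higher in October. Their median site difference was 1.43 in July and 1.76 in October, against -0.03 in the late May and 0.14 in the August pair. Of 16 heat shock factors tested, 4 were lower in late May, 5 higher in July, 3 higher and 1 lower in August, and 7 higher and 1 lower in October. Of 7 nucleotide exchange factors, which release the client from HSP70, 1 was higher in each of the first 3 pairs and 2 in October. Of all genes tested, 16.1% were called higher and 12.6% lower in late May, and 5.17% and 3.66% in July. In August 6.4% were higher and 8.11% lower, and in October 10.5% and 13.6%.

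Single genes of these lists stood out by size in October. HSP101, a disaggregase, is represented by MANES_06G085600, which ranged from 6.75 to 10.5 in Hanoi on 10 October and from 155 to 746 in Bac Kan on 5 October (4.99 ± 0.34, adjusted p = 7.61e-14). An HSP90.1 homologue, MANES_06G152800, ranged from 2.56 to 3.08 in Hanoi and from 134 to 1466 in Bac Kan (7.49 ± 0.52). An HSP70-4 homologue, MANES_10G032000, ranged from 116 to 146 in Hanoi and from 548 to 1198 in Bac Kan (2.58 ± 0.29). None of these overlapped between the sites in October. In the late May pair MANES_10G032000 was lower in Bac Kan (-1.18 ± 0.29, adjusted p = 0.00179), and the late May values of the others are not given here. In July MANES_06G085600 (1.88, adjusted p = 0.000262), MANES_06G152800 (4.05, adjusted p = 1.41e-06) and MANES_10G032000 (1.55, adjusted p = 0.000339) were called higher. In August MANES_06G085600 (1.56, adjusted p = 0.00115) and MANES_10G032000 (3.20, adjusted p = 2.9e-10) were higher, while MANES_06G152800 was not called (-0.92, adjusted p = 0.278). Further homologues of HSP90.1 (MANES_14G022300, 0.65, adjusted p = 0.333) and HSP70-4 (MANES_07G114200, 0.52, adjusted p = 0.221) were not called in August either.

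**Figure D5:**
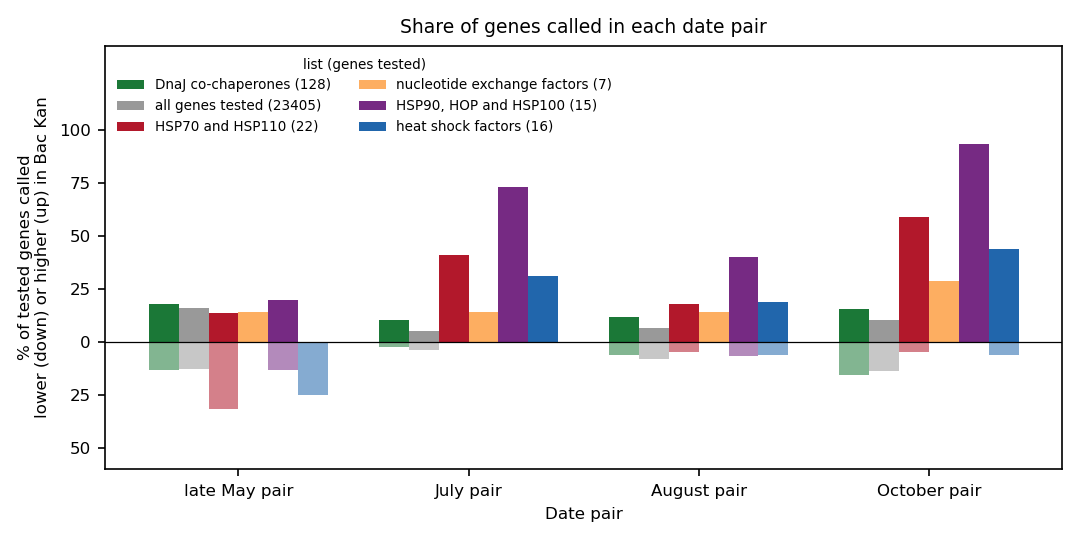
Percent of tested genes called higher (upward bars) or lower (downward, paler bars) in Bac Kan in each date pair. The bars show the DnaJ co-chaperones, all genes tested and 4 lists of HSP70s, nucleotide exchange factors, other chaperones and heat shock factors. The number of genes tested is given beside each list. In October 14 of 15 genes of the HSP90, HOP and HSP100 list were higher, while 20 of 128 DnaJ co-chaperones were higher and 20 lower.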

How the data were processed

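Leaf RNA of 44 cassava libraries was sequenced in 11 groups of 4, grouped by the site and date in the sample titles, since other label fields differ from the titles for most samples. The deposited tables give FPKM per transcript, made by the authors. TopHat2 is named, per the submitters' processing notes, and the quantifier, genome build and annotation are not given in the sources used here. FPKM corrects for length and for library total, and no counts were used here, so precision rests on the spread between libraries. In 1 table a column named as a sample of another date was not used (1 column). Libraries are numbered by the place of their column in a table, a name that pairs nothing.

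Transcripts were summed per gene ID, each library was rescaled to 1000000, and log2(level + 1) was fitted with limma 3.58.1 (R 4.3.3) in one model of the 11 groups, with a trended empirical Bayes prior and two-sided tests. Genes at 1 or more in at least 4 libraries were tested, with Benjamini-Hochberg adjustment over 23405 genes. Tables and plots used Python 3.11.15, pandas 2.3.3, numpy 2.4.6 and matplotlib 3.10.9. Because low FPKM values fall near whole multiples of 1 read, relative depth could be estimated.

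The members, the role lists, the lists of other chaperone genes and heat shock factors, and the tests were chosen with earlier results of these data known. Members were named by a rule: the 6 largest rises and falls among calls with a mean of at least 5 in the higher group in each pair, in their mean and between the first and last dates, the 6 smallest p values of each F test, the 10 highest mean levels, and members with a listed role. Of these, 38 were followed by library and under the alternatives. No rule is given here for the choice of the 38, and some members that met the naming rule are not described. Alternatives were pseudocounts of 0.1 and 5, no filter, a filter at 5, median-ratio scaling, FPKM as deposited, the most abundant transcript, only the groups compared, a robust prior, date means as samples and each library left out. Leaving out the late May or the October pair was chosen after seeing the data. No sequences or positions are given, since no table used here pairs them with these gene IDs.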

Additional observations from a re-analysis of the deposited data

Results flagged for a closer look

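In 418 sets of 4 libraries, those of the 38 members in the 11 groups, the highest or lowest library stood far from the other 3 in 20, and chance alone would set apart about 1 set in 20. The libraries of Bac Kan on 30 October held a lowest library at 508 for MANES_10G060800, next to 686, a lowest library at 48.4 for MANES_05G052200, next to 72.5, and a highest library at 1.30 for MANES_04G077000, next to 0. The libraries of Bac Kan on 29 June held a highest library at 55.7 for MANES_05G052200, next to 38.3, and a highest library at 25.9 for MANES_17G076700, next to 4.54. The libraries of Bac Kan on 15 August held a highest library at 10.8 for MANES_13G142000, next to 8.12, a highest library at 4.02 for MANES_17G076700, next to 1.09, a highest library at 331 for MANES_01G223300, next to 131, a highest library at 371 for MANES_18G052700, next to 177, a highest library at 92.6 for MANES_16G121200, next to 42.5, and a highest library at 95.9 for MANES_09G141200, next to 42.7. The libraries of Hanoi on 13 July held a highest library at 1.23 for MANES_17G076700, next to 0, and a lowest library at 45.0 for MANES_02G194900, next to 81.6. The libraries of Bac Kan on 31 May held a lowest library at 125 for MANES_11G015200, next to 189.9. The libraries of Bac Kan on 5 October held a highest library at 2.99 for MANES_04G077000, next to 0, a lowest library at 87.3 for MANES_02G194900, next to 101, and a lowest library at 49.7 for MANES_05G002100, next to 54.5. The libraries of Hanoi on 24 May held a highest library at 31.0 for MANES_08G094300, next to 16.5. The libraries of Hanoi on 7 August held a highest library at 5.97 for MANES_08G094300, next to 4.07. The libraries of Bac Kan on 26 July held a highest library at 11.3 for MANES_16G068100, next to 3.38. In Bac Kan on 15 August it was library 2 for MANES_01G223300, MANES_18G052700, MANES_16G121200, MANES_09G141200 and MANES_17G076700. What sets these libraries apart was not tested.

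The site difference changed between the 4 date pairs for 32 of the 38 members by limma's F test, with adjusted p = 2.04e-11 for MANES_08G113000, 6.49e-11 for MANES_04G148900, 1.62e-10 for MANES_11G099500, 2.79e-09 for MANES_04G063000, 5.91e-09 for MANES_06G008600, 2.83e-08 for MANES_11G015200, 3.26e-08 for MANES_01G146100 and 7.4e-07 for MANES_02G088600. The next adjusted p values of the F test were 1.4e-06 for MANES_10G060800, 1.47e-06 for MANES_01G223300, 4.23e-06 for MANES_09G053200, 5.55e-06 for MANES_08G094300, 1.03e-05 for MANES_04G077000, 4.16e-05 for MANES_18G052700, 6.99e-05 for MANES_01G137600 and 8.04e-05 for MANES_17G076700. Further members had adjusted p values of 8.9e-05 for MANES_11G058000, 0.000151 for MANES_01G226300, 0.000163 for MANES_02G096000, 0.000171 for MANES_16G032100, 0.000236 for MANES_16G121200, 0.000274 for MANES_18G079100, 0.000527 for MANES_04G101600 and 0.000723 for MANES_02G194900. The remaining members had adjusted p values of 0.000782 for MANES_16G084900, 0.00159 for MANES_05G002100, 0.00273 for MANES_09G141200, 0.00533 for MANES_13G084000, 0.00552 for MANES_03G144800, 0.0104 for MANES_09G072600, 0.0377 for MANES_05G146400 and 0.0463 for MANES_08G086700. These are the same libraries as in the comparisons of single pairs. The 38 were taken from members named in part for large called site differences or small p values of this same F test. A high count among them was therefore largely set by that choice. Of all 128 members tested, 62 were called by this F test, beside 38.1% of all genes.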

How the results depend on the processing

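With the spread taken from only the groups compared, 23 members were called in the late May pair instead of 40, beside 14.8% of all genes instead of 28.7%. With date means as samples, limma compared the 7 Bac Kan dates with the 4 Hanoi dates, unpaired, in place of the mean of the pairs. It called 0 members, with 23 at an unadjusted p under 0.05, and 6 of all genes. Without single libraries the members called were 34 to 41 in late May, 12 to 20 in July, 21 to 25 in August, 31 to 43 in October, 37 to 44 in the mean of the pairs, 57 to 65 for the change between pairs, 61 to 69 over the Bac Kan dates, 67 to 78 over the Hanoi dates, and 30 to 43 and 48 to 56 between the first and last dates in Bac Kan and Hanoi. The matching counts of all genes without single libraries are not given here. Whether these ranges are particular to the members was therefore not tested. Without the late May pair the mean difference by limma turned to -0.21 for MANES_01G146100 (adjusted p = 0.277) and to -0.0902 for MANES_09G053200 (adjusted p = 0.613), neither called. For MANES_10G060800 it turned to -0.17 (adjusted p = 0.0368). Without the October pair the mean difference by limma turned to 0.23 for MANES_06G008600 (adjusted p = 0.0167). The cause was not tested. Of 143 called results of the 38 members, 88 kept their call under every alternative. Calls lost were 19 with only the groups compared and 27 with date means, where the contrast differed too. They were 5 without the late May pair and 6 without the October pair. Each of the other settings that keep all libraries lost at most 3. No paired analysis was possible because the columns carry no replicate numbers. Depth is known only as a relative estimate, so values near 0 carry no interval.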
